A study of Mus musculus with 5 samples.

Results

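The proliferin genes of the mouse, whose symbols begin with Prl2c, were followed in NIH/3T3 cells, immortalised fibroblasts from mouse embryos. All symbols with this prefix were taken, 5 (Prl2c1 to Prl2c5) of 14454 listed gene symbols. The family was chosen by measured values, the RPKM of T120D lines against wt and of line 6 against the other T120D lines, so these differences are given as a description and were not tested. The 5 lines examined all carry a transgene for human H2A joined to EGFP. T120D lines 3, 6, 15 and 18 (n = 4) express the histone with an aspartate in place of a threonine, and 1 line, wt, expresses the wild-type histone. All were grown in DMEM with 10% fetal calf serum and 10 µg/ml gentamicin. The labels name neither the promoter of the transgene nor whether the T120D lines are clones or parallel cultures, so the T120D lines may not be independent of each other, and wt and line 6 are 1 library each.

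Proliferins are secreted glycoproteins of the prolactin and growth hormone family. They were first found as transcripts that appear when resting mouse fibroblasts are stimulated with serum or growth factors, and in the animal they are made by trophoblast giant cells of the placenta, where they promote the growth of blood vessels. Proliferin carries mannose 6-phosphate and binds the receptor encoded by Igf2r. Its promoter is a textbook case of joint control by the transcription factor AP-1 and the glucocorticoid receptor, with the outcome set by the make-up of AP-1.

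The members differ little in sequence, which limits how far reads can be assigned to one of them. Over 675 aligned coding bases of GENCODE transcripts (GRCm38), Prl2c2 and Prl2c3 differed at 3 positions, a 99.6% identity. Written with the Prl2c2 base first and counted from 1 at the first coding base, the differences were T14C, C200A and T319G. Of the 50-base windows of the Prl2c2 transcript, 80.1% were present unchanged in Prl2c3. Prl2c5 stood further off, with 95.1% identity to Prl2c2 and 94.9% to Prl2c3, and Prl2c1 had 94.1% and 93.9%. The symbol Prl2c4 of the deposited tables is a synonym of Prl2c3 in the RefSeq gene table of GRCm38, so no separate sequence of it was used here. The 60-base coding stretch with the most differing positions among the 3 clustered members, 7 of them, is given from the GENCODE transcripts of GRCm38. It is shown because reads from such positions are what separates the members, and the capitals mark the positions that are not the same in all of them. Only T319G differs between Prl2c2 and Prl2c3 in this stretch, and the other capitals set Prl2c5 apart from both. Prl2c4 is not part of it.
Prl2c2 coding bases 306 to 365: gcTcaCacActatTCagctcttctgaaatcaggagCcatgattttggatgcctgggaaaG
Prl2c3 coding bases 306 to 365: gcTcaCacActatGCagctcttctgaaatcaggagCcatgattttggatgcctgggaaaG
Prl2c5 coding bases 315 to 374: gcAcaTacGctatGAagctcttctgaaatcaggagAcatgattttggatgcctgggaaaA

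**Figure D1:**
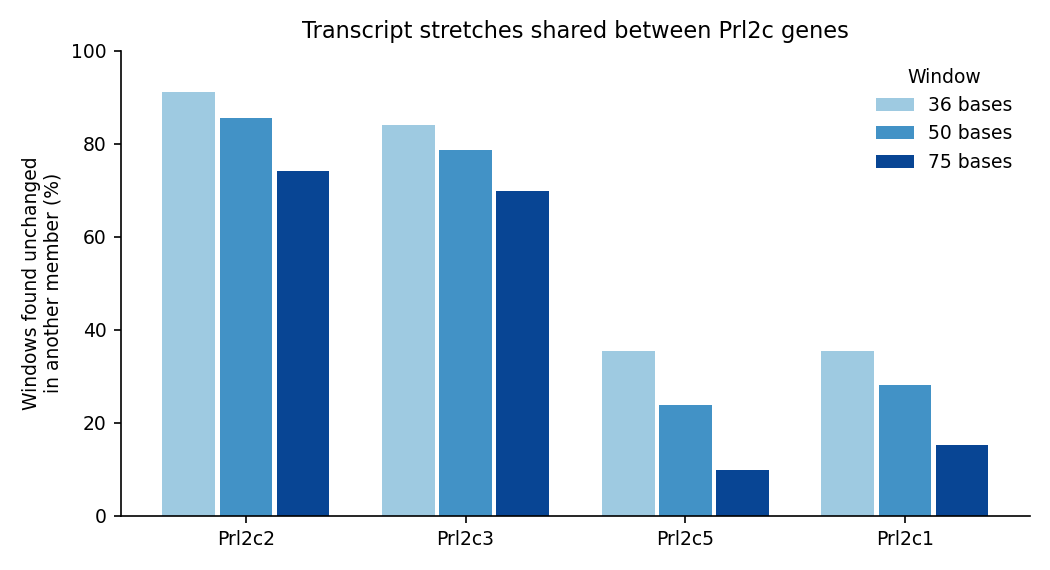
Share of all windows of 36, 50 or 75 bases of each member's GENCODE transcript (vertical axis, %) that occur unchanged in another member's transcript, for 4 members with a transcript. At 50 bases the share was 85.6% for Prl2c2 and 78.6% for Prl2c3, against 23.8% for Prl2c5 and 28.02% for Prl2c1.

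The promoters of Prl2c3, 1 of the 3 expressed members, and of Prl2c5, which was nearly silent, are shown for comparison. Both sequences come from RefSeq (GRCm38.p6) and span the annotated transcription start, 5′ to 3′ on the strand of the gene. The first is chr13:12800030-12800329 on the minus strand and the second chr13:13182466-13182765 on the plus strand. Over 299 aligned bases they were 96.0% identical. Capitals mark matches to TGANTCA, a loose form of the letters bound by AP-1 with any base at N. They also mark TATATAA, a form of the box that positions the start of transcription.
Prl2c3 promoter: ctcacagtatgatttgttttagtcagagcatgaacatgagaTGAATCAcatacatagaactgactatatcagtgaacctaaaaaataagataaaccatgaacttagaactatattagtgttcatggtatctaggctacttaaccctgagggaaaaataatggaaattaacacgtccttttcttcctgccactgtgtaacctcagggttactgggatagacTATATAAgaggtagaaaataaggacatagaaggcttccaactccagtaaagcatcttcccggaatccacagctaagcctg
Prl2c5 promoter: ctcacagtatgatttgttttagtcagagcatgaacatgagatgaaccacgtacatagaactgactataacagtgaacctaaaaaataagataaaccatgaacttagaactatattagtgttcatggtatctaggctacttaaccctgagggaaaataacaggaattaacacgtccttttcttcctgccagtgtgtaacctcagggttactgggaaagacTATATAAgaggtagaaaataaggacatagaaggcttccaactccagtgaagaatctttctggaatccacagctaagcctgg
Each held TATATAA on the strand of the gene, at -30 to -24 from the start in Prl2c3 and at -31 to -25 in Prl2c5. Such a match was present on either strand in 3.24% of 32851 promoter windows of the same length. TGANTCA occurred in Prl2c3 at -209 to -203, with A as the base at N, and had no match in the Prl2c5 window. It was present in 7.81% of all windows. AGAACA, one arm of the element bound by the glucocorticoid receptor, had no match in either window on either strand and was present in 19.0% of all windows. The matches do not overlap. These are matches of letters and say nothing of binding.

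The tables give RPKM, reads scaled to gene length and library size, and hold no counts. From the value of 1 read in genes with a single annotated transcript, depth was put at 2520000 to 2720000 reads. Summed RPKM lay between 158614 and 160825. At this depth 1 read of Prl2c2 corresponds to 0.437 to 0.471 RPKM. Between 76 and 86 values per line lay above 0 and under 0.001 RPKM, far below the value of 1 read, so some values are fractions of a read. Values of single Prl2c members are uncertain, since their reads could be split, and the sum over the family is given beside them. Over the 10052 tested genes, the root mean square difference in log2(RPKM + 1) was 0.53 to 0.57 between T120D lines and wt, 0.33 to 0.34 between line 6 and lines 3, 15 and 18, and 0.31 to 0.32 among the last. In whole cultures, fewer cells with a transcript and less of it per cell cannot be told apart.

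Prl2c2, which encodes the first described proliferin, was the most abundant member in every line. It had 112.6, 158.0, 120.8 and 89.8 RPKM in T120D lines 3, 6, 15 and 18, against 168.0 RPKM in wt. All 4 T120D lines lay below wt, line 6 closest to it. The T120D mean was 120.3 ± 28.3 RPKM (SD, n = 4), 1.397-fold lower than wt. By level, Prl2c2 ranked 108 among all listed genes in line 6 and 155 to 223 in the other T120D lines, against 89 in wt.

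Prl2c3 lay on the other side of wt. It had 52.1, 103.9, 53.6 and 43.5 RPKM in T120D lines 3, 6, 15 and 18, against 40.1 RPKM in wt. All 4 T120D lines lay above wt, but lines 3, 15 and 18 were within 1.34-fold of it and line 6 was 2.59-fold higher. The T120D mean of 63.3 ± 27.4 RPKM (SD, n = 4) was 1.58-fold higher than wt. Without line 6 the mean was 49.7 RPKM, 1.24-fold higher.

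Prl2c4 had the widest distance from wt. It had 30.1, 50.1, 35.7 and 40.2 RPKM in T120D lines 3, 6, 15 and 18, against 103.5 RPKM in wt. The groups did not overlap. The T120D mean of 39.0 ± 8.43 RPKM (SD, n = 4) was 2.65-fold lower than wt, and single lines were 2.07-fold to 3.43-fold lower.

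Prl2c1 and Prl2c5 were listed at 0 in all 4 T120D lines. In wt they had 0.479 and 0.528 RPKM, about 1 read each. These 2 members did not pass the filter, a mean of 1 RPKM or more, and the other 3 did. Of those 3, all 4 T120D lines lay below wt for 2 and above wt for 1. Over all 10052 tested genes the T120D lines lay below wt for 32.3% and above wt for 31.1%.

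**Figure D2:**
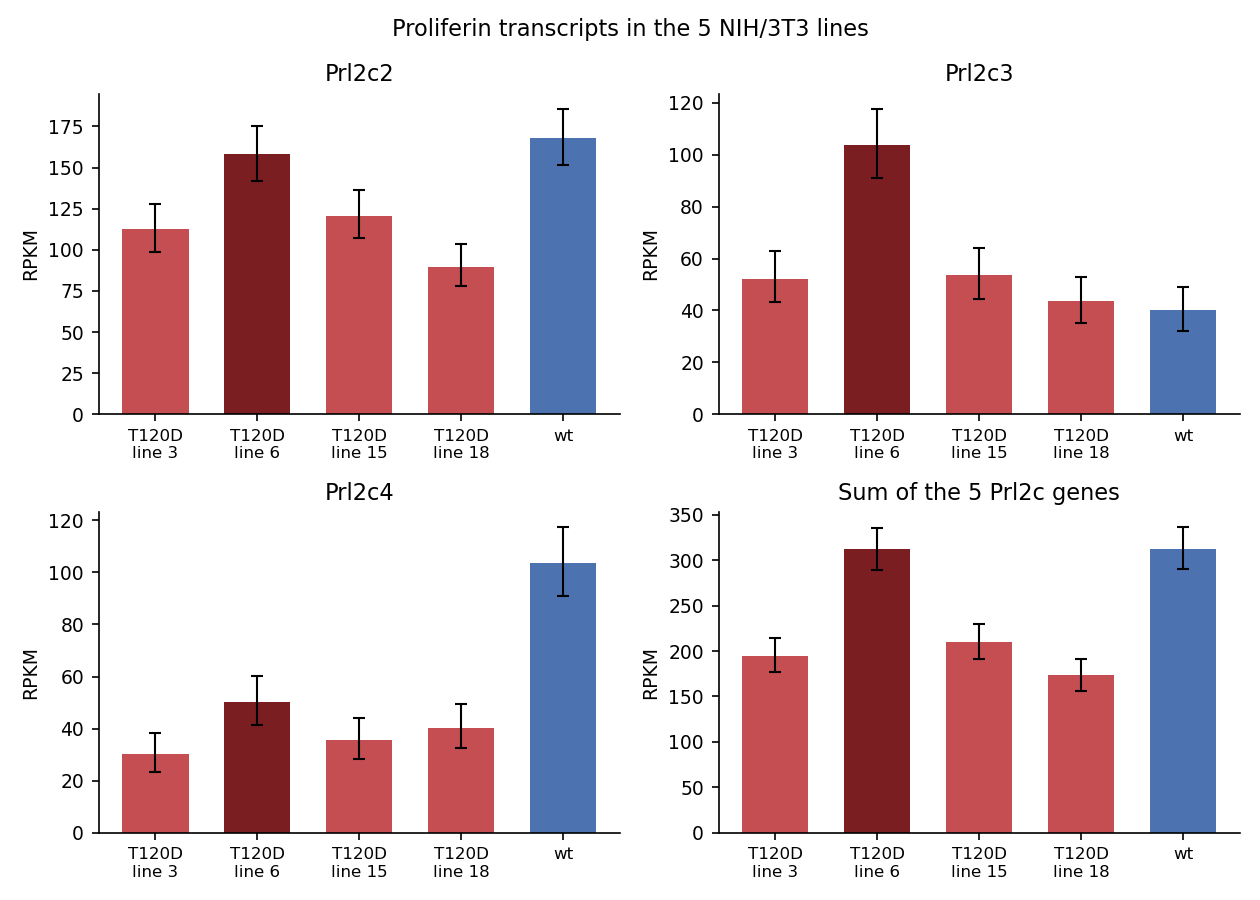
RPKM (vertical axes) of Prl2c2, Prl2c3, Prl2c4 and the sum of the 5 Prl2c genes in the 4 T120D lines and the wt line, 1 library per bar. Error bars are 95% Poisson intervals of the estimated reads and cover counting error only. Line 6, in dark red, is the highest T120D line in each panel, and its sum of 311.9 RPKM is beside 312.6 in wt.

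Added over the family, proliferin transcripts came to 194.9, 311.9, 210.1 and 173.5 RPKM in T120D lines 3, 6, 15 and 18, against 312.6 RPKM in wt. Lines 3, 15 and 18 formed a low group and line 6 stood at the level of wt. The T120D mean was 222.6 ± 61.4 RPKM (SD, n = 4), 1.404-fold lower than wt, and 192.8 RPKM without line 6, 1.62-fold lower. By line, T120D was 1.60-fold lower in line 3, 1.49-fold in line 15 and 1.80-fold in line 18. In line 6 the sum of the 3 members that passed the filter was 311.9 RPKM, against 311.6 RPKM in wt.

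The reads behind these sums were estimated with the transcript lengths of GENCODE and, for Prl2c4, with that of Prl2c3. They numbered 417, 715, 474 and 387 in T120D lines 3, 6, 15 and 18, against 722 in wt. Their exact Poisson 95% intervals, expressed in RPKM, ran from 289 to 335 in line 6 and from 290.2 to 336 in wt, so these lines overlapped. Line 15 (192 to 229.8) overlapped line 3 (177 to 215), and line 3 overlapped line 18 (156 to 191). The intervals of line 6 and wt lay above those of the other 3 lines. These intervals cover counting error only and not the spread between cultures.

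Against the other T120D lines, line 6 was higher for each of the 3 members that passed the filter. For the family sum, line 6 had 311.9 RPKM against 192.8 ± 18.4 RPKM (SD, n = 3) in lines 3, 15 and 18, a ratio of 1.62. The ratio was 2.09 for Prl2c3, 1.47 for Prl2c2 and 1.42 for Prl2c4. Prl2c3 made up 45.5% of the difference in RPKM, Prl2c2 42.2% and Prl2c4 12.4%. Line 6 lay above lines 3, 15 and 18 for 25.4% of all tested genes, and was at least 1.5 times each of them for 1.52%, which held for 1 of the 3 members, Prl2c3. By limma, 0 of 10052 genes (0%) passed an adjusted p of 0.05 between line 6 and these lines, with 314 higher and 410 lower at an unadjusted p under 0.05. Line 6 is 1 library.

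The listed make-up of the family sum differed from wt in all T120D lines, including line 6. The difference lay between Prl2c3 and Prl2c4, which GRCm38 lists as 1 gene and whose reads could be split. Whether the assignment of reads plays a part was not tested. Prl2c3 accounted for 26.7%, 33.3%, 25.5% and 25.1% of the sum in T120D lines 3, 6, 15 and 18, against 12.8% in wt. Prl2c4 accounted for 15.5%, 16.1%, 17.01% and 23.1%, against 33.1% in wt. For both, the wt share lay outside the range of the T120D lines. The share of Prl2c2 was 54.4 ± 3.74% (SD, n = 4) in T120D and 53.8% in wt, inside the range of the T120D lines. The ratio of Prl2c3 to Prl2c4 was highest in line 6, at 2.07, and lowest in line 18, at 1.08, against 0.388 in wt.

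**Figure D3:**
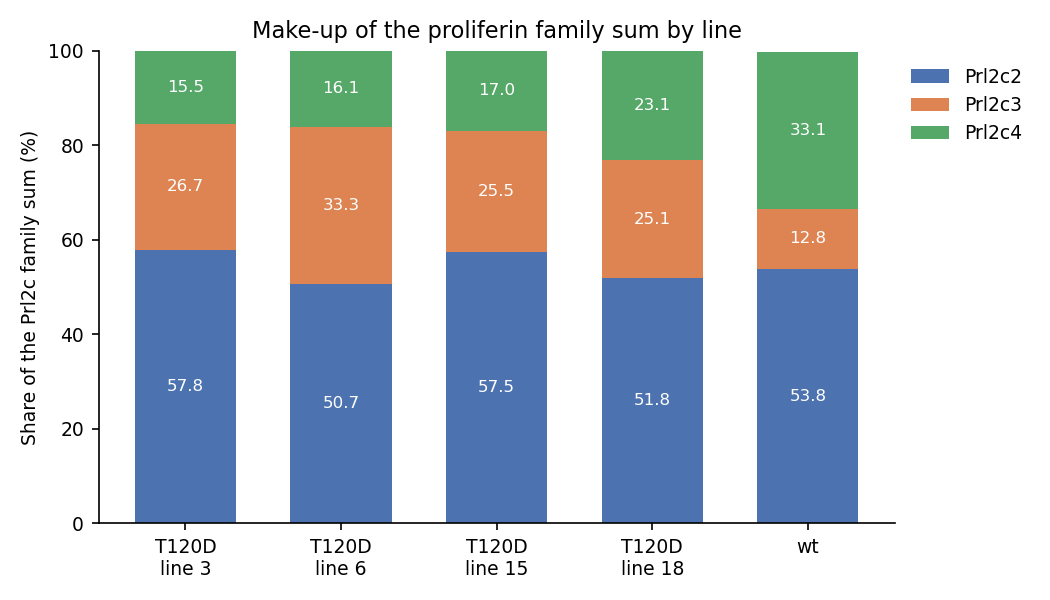
Share of the Prl2c family sum (vertical axis, %) held by Prl2c2, Prl2c3 and Prl2c4 in the 4 T120D lines and the wt line. Prl2c3 holds 25.1% to 33.3% in T120D and 12.8% in wt, and Prl2c4 holds 15.5% to 23.1% in T120D and 33.1% in wt.

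Prl2c3 and Prl2c4, which GRCm38 lists as 1 gene, were also added together. The pair had 82.3, 153.9, 89.3 and 83.6 RPKM in T120D lines 3, 6, 15 and 18, against 143.6 RPKM in wt. Lines 3, 15 and 18 were 1.61-fold to 1.75-fold lower than wt, and line 6 was 1.07-fold higher. In those 3 lines Prl2c3 alone lay above wt and the pair below it. The pair's share of the family was 45.6 ± 3.74% (SD, n = 4) in T120D and 45.9% in wt, inside the range of the T120D lines. This combination was chosen after the data were seen.

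Around the loci, the neighbouring genes on chromosome 13 were examined in the order of the GRCm38 annotation. Prl2c3, Prl2c2 and Prl2c5 form a cluster with 11 annotated genes between them, 9 of them pseudogenes and 0 with a value in the tables. On one side of it, Gpr137b, which encodes a lysosomal membrane protein, was at 16.9, 16.7, 13.6 and 13.8 RPKM in T120D lines 3, 6, 15 and 18, against 46.5 in wt. It was 3.05-fold lower in T120D, with no overlap (log2 difference -1.56, SE 0.16, limma adjusted p = 0.000542). Nid1, the basement membrane gene next to it, had 136.0 ± 2.80 RPKM (SD, n = 4) in the T120D lines and 180.2 in wt. The difference passed the test (log2 difference -0.40, limma adjusted p = 0.0162), but not by limma without a trend (0.123). Lyst, a regulator of lysosomal traffic, was at 1.01 ± 0.356 RPKM against 2.49 and did not pass the test (limma adjusted p = 0.115). On the other side, Gpr137b-ps, annotated as a pseudogene and named after Gpr137b, was at 8.26 ± 0.565 RPKM against 11.2 (limma adjusted p = 0.135). Reads may be shared between these 2 loci.

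Ero1lb, an oxidase gene of the endoplasmic reticulum, had 1.13 ± 0.639 RPKM in T120D and 0.433 in wt and was not tested, and Edaradd was listed at 0. Between line 6 and the other T120D lines, the log2 difference was 0.18 for Gpr137b (limma adjusted p = 0.859) and -0.01 for Nid1 (limma adjusted p = 0.993), and neither passed the test. Prl2c1 lies apart, near other prolactin family genes. Of its neighbours with values, Mrs2, Sox4 and Cdkal1 did not pass the test (log2 differences 0.05, 0.04 and 0.06, limma adjusted p of 0.916, 0.898 and 0.923). The sign of these small differences was not kept under all alternatives. The uncharacterised 2610307P16Rik had at most 0.755 RPKM.

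Of 23 other prolactin and growth hormone genes looked for, 2 had values and the other 21 were not analysed here. Prl7d1, the gene of proliferin-related protein, an inhibitor of vessel growth in the placenta, reached at most 0.397 RPKM and Prl7a1 was listed at 0 in every line. Of 12 trophoblast markers, 2 had values and 0 passed the filter, with at most 0.370 RPKM for Plac1 and 0.102 for Eomes. The other 10 were not analysed here. The summed level of the 2 markers was 0 to 0.453 RPKM in T120D lines and 0.343 in wt. Macrophage, endothelial and epithelial markers had values for 2 of 6, 3 of 4 and 1 of 4 genes, with maxima of 1.46, 0.471 and 0.249 RPKM in any line. Their summed levels were 0.102 to 1.23, 0.0926 to 0.471 and 0 to 0.0837 RPKM in T120D lines, against 1.46, 0 and 0.249 RPKM in wt.

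Fibroblast markers as a set were present in all lines, and 10 of 11 passed the filter, but their levels moved with the groups. The summed RPKM of the 11 markers was 2328 to 2705 in T120D and 3109 in wt. Of 10 tested markers, 7 were lower in T120D and 1, Thy1, was higher, where limma called 13.1% of all tested genes, 7.65% higher and 5.45% lower. The largest differences were in Pdgfra, a PDGF receptor gene, at 12.7 ± 1.72 RPKM against 43.5 (log2 difference -1.71, limma adjusted p = 0.000444), and in Col3a1 and Fn1, matrix genes with log2 differences of -1.52 and -1.43. Dcn, which encodes decorin, resembled the proliferins in line 6. It had 24.5 RPKM there and 12.4, 12.7 and 11.7 in lines 3, 15 and 18, against 35.2 in wt (T120D minus wt -1.21, limma adjusted p = 0.043, but 0.240 without the filter, 0.0978 without a trend and 0.0675 to 0.0822 without line 3, 15 or 18). The part of these markers in the proliferin levels was not tested.

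All log2 differences are of log2(RPKM + 1), which understates changes of low genes. The gene lists were chosen with earlier results of these data known, so the counts of called genes within a list are a description. The list of receptors and of the mannose 6-phosphate tag held 3 called genes, Igf2r, Gnptab and the growth hormone receptor gene Ghr. Of 6 tested genes, 3 were lower in T120D and 0 higher, where 5.45% of all tested genes were lower and 7.65% higher, with a median log2 difference of -0.61 over the 6, beside -0.02 over all tested genes. Igf2r, the gene of the receptor that binds proliferin, had 8.95, 10.4, 7.40 and 7.61 RPKM in T120D lines 3, 6, 15 and 18, against 15.8 RPKM in wt. It was lower in 4 of 4 T120D lines, by 1.83-fold in the mean (log2 difference -0.82, SE 0.20, limma adjusted p = 0.0275). Like the family sum, Igf2r was highest in line 6 among the T120D lines, but its line 6 difference did not pass the test (log2 difference 0.35). Line 6 was the highest T120D line for 3 of the 6 tested genes of the list and for 25.4% of all tested genes. Gnptab, which encodes subunits of the enzyme that begins the mannose 6-phosphate tag, had 6.84, 6.95, 8.59 and 5.62 RPKM in those lines, against 12.97 RPKM in wt (log2 difference -0.82, limma adjusted p = 0.0342). Both calls ended without the filter (0.1204 for Igf2r and 0.135 for Gnptab) and by limma without a trend, with adjusted p of 0.0588 for Igf2r and 0.0648 for Gnptab, and that of Igf2r ended without line 18 (0.0524) and that of Gnptab without line 3 (0.0664).

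The other members of that list varied. Gnptg, a further subunit, had 3.84 ± 1.19 RPKM (SD, n = 4) in T120D lines against 5.35 (limma adjusted p = 0.418). Nagpa, which uncovers the tag, was at 4.13 ± 1.25 against 4.07, with a log2 difference of -0.02 that became 0.0049 under median scaling and 0.06 under quantile normalization. M6pr, the gene of the second mannose 6-phosphate receptor, was at 47.3 ± 1.95 against 40.9 (limma adjusted p = 0.254). Ghr, the growth hormone receptor gene, was at 12.0 ± 0.889 against 21.5 (log2 difference -0.80, limma adjusted p = 0.00968).

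Among the AP-1 subunits, 1 gene, Fosl1, passed the test. Fosl1, which encodes FRA-1, had 42.9, 57.5, 44.2 and 32.8 RPKM in T120D lines 3, 6, 15 and 18, against 16.5 RPKM in wt. It was higher in 4 of 4 T120D lines, 2.68-fold in the mean (log2 difference 1.34, SE 0.23, limma adjusted p = 0.0076), and the call ended when no filter was used (0.108). Within T120D the order of the lines was that of the proliferin sum, with line 6 highest, then 15, 3 and 18, while wt was lowest. Lines 15 and 3 lay close together for Fosl1. The proliferin sums of lines 15 and 3 overlapped in counting error, and so did those of lines 3 and 18. Neither step in the order of the sums is resolved. Line 6 was the highest T120D line for 2 of the 5 tested subunits and for 25.4% of all tested genes. The line 6 difference did not pass the test (log2 difference 0.53, limma adjusted p = 0.595). Of the 5 tested subunits 1 was higher and 0 lower, where 7.65% of all tested genes were higher and 5.45% lower, with a median of 0.08. Fos and Fosb did not pass the filter.

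Of 8 tested genes of the glucocorticoid receptor and its targets, 2 were higher and 2 lower, where 7.65% of all tested genes were higher and 5.45% lower, with a median of 0.04. Fkbp5, encoding a co-chaperone of the receptor, had 16.1 ± 2.05 RPKM (SD, n = 4) in T120D lines against 9.06 (limma adjusted p = 0.0231, but 0.104 without the filter, 0.0587 without a trend and 0.0517 without line 3). Dusp1, a phosphatase gene of MAPK signalling, was at 31.5 ± 7.94 against 10.2 (limma adjusted p = 0.00583, but 0.0963 without the filter). Mt2, a metallothionein gene, was 4.41-fold lower, at 24.5 ± 4.70 against 108.2 (limma adjusted p = 0.0003), and Klf9 had a log2 difference of -0.76 (limma adjusted p = 0.019, but 0.0771 without the filter).

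Mitogens and their receptors were examined because serum and growth factors induce proliferin. Of 14 tested genes 2 were higher and 3 lower, where 7.65% of all tested genes were higher and 5.45% lower, with a median of 0.01. The ligand genes Hbegf and Pdgfa were higher, at 10.1 ± 1.78 and 8.78 ± 0.781 RPKM (SD, n = 4) in T120D against 0.926 and 4.34 in wt (log2 differences 2.51 and 0.87, limma adjusted p of 0.000231 and 0.0127). The receptor genes Pdgfra, Pdgfrb and Fgfr1 were lower, with log2 differences of -1.71, -1.12 and -0.53. The call of Fgfr1 (limma adjusted p = 0.0277) ended without the filter (0.0601), by limma without a trend (0.0823), and without line 3 (0.0596) or line 15 (0.0523).

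Of 16 growth-induced genes of 3T3 cells, all tested, 9 were higher and 1, Spp1, was lower, where 7.65% of all tested genes were higher and 5.45% lower, with a median of 0.9998. The list includes Fosl1 and was chosen with earlier results of these data known, so its counts are a description and no test of the list. Tnc, the tenascin C gene, had 20.6 ± 2.004 RPKM (SD, n = 4) in T120D lines against 3.00, and Plaur, the urokinase receptor gene, had 32.3 ± 5.05 against 6.83. Ier3, an early response gene, and Ccnd1, the cyclin D1 gene, had log2 differences of 1.41 and 1.36 (limma adjusted p of 0.00132 and 0.000381). Spp1, which encodes osteopontin, was at 71.6 ± 15.2 against 566.6. Proliferin is itself known as a growth-induced gene of such cells, and its sum was below wt in lines 3, 15 and 18 and beside wt in line 6.

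Among 9 tested genes of other secreted angiogenic factors, 2 were higher and 3 lower, where 7.65% of all tested genes were higher and 5.45% lower, with a median of -0.42. Cyr61, a matricellular protein gene, had 154.2 ± 25.7 RPKM (SD, n = 4) in T120D lines against 28.6 (2.38 on the log2 scale, limma adjusted p = 0.000108) and Figf, a VEGF family gene, had 15.6 ± 0.661 against 9.77 (0.62, limma adjusted p = 0.0197). Ptn, the pleiotrophin gene, was at 9.51 ± 3.44 against 47.5 (-2.26, limma adjusted p = 0.00232, but 0.0713 without the filter). Angptl4 and Hgf were lower by log2 differences of -0.91 and -1.15 (limma adjusted p of 0.003 and 0.0259, that of Hgf 0.0575 with a pseudocount of 0.1 RPKM). In RPKM, which is scaled to length, the proliferin sum was above the highest of the 14 listed factors in all 5 lines. The distance was smallest in T120D line 3, with 194.9 RPKM for the sum and 187.0 RPKM for Cyr61. The comparison sets a sum over genes beside single genes. The most abundant member alone, Prl2c2, was below Cyr61 in all 4 T120D lines, with 158.0 against 162.4 RPKM in line 6. In wt it was above the highest factor, Angptl4, with 168.0 against 62.1 RPKM. Summed over the 14 factors, the level was 253.1 to 321.0 RPKM in T120D lines and 253.2 RPKM in wt.

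**Figure D4:**
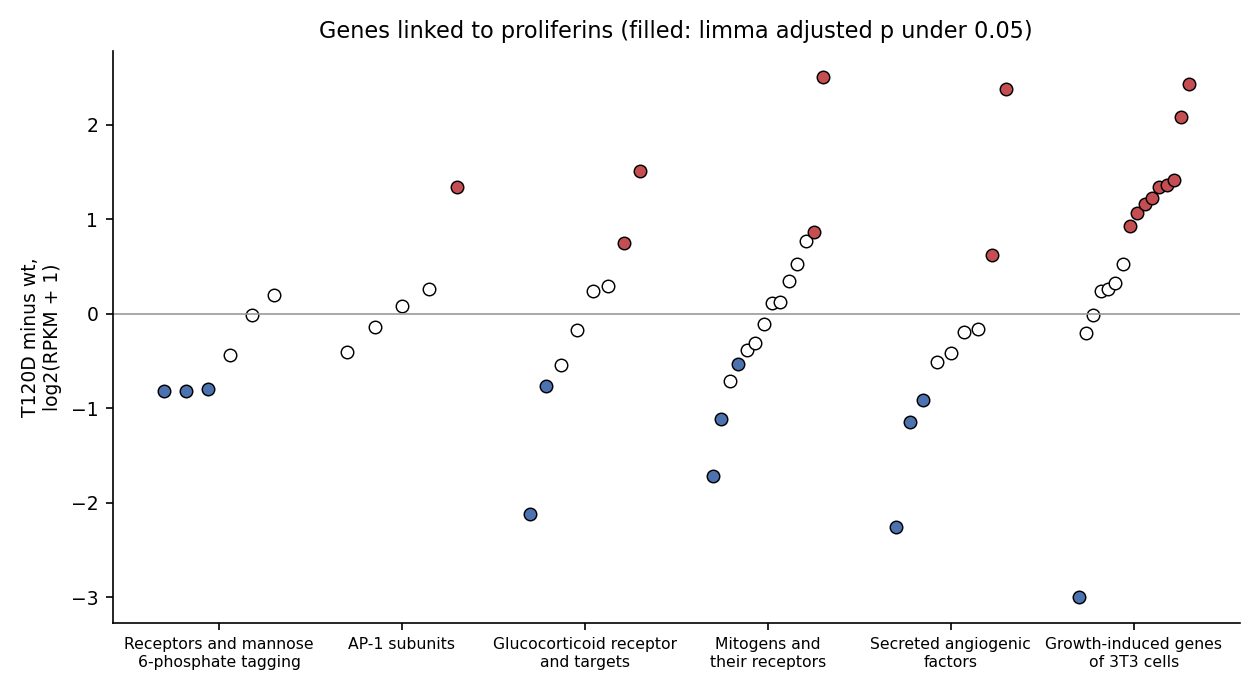
Difference T120D minus wt in log2(RPKM + 1) (vertical axis) for tested genes of 6 lists linked to proliferins, 1 point per gene, ordered by size within a list. The lists were chosen with earlier results of these data known. Filled points had a limma adjusted p under 0.05. In the receptor list 3 of 6 points are filled and lower, and among the growth-induced genes 9 of 16 are filled and higher.

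The genes whose pattern over the 5 lines lay nearest that of the family sum were Phf6, Rap2c, Cdk16, 9130221H12Rik and Sdc4. Likeness was the Euclidean distance between log2(RPKM + 1) values centred on each gene's own mean, among 6229 other genes that averaged 5 RPKM or more. The distances were 0.135, 0.204, 0.221, 0.223 and 0.257, where the median over all compared genes was 0.889 and a flat pattern had 0.788. Phf6, which encodes a chromatin protein with PHD fingers, was at 5.45, 8.83, 5.53 and 4.19 RPKM in T120D lines 3, 6, 15 and 18, against 8.18 in wt. Line 6 and wt were high and the other 3 lines low. Rap2c, a small GTPase gene, had 13.1 RPKM in line 6 and 5.89 to 6.998 in the other T120D lines, against 11.5 in wt.

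Cdk16, a kinase gene, had 22.7 RPKM in line 6 and 13.4 to 13.6 in the other T120D lines, against 25.0 in wt. Sdc4, the gene of the cell-surface proteoglycan syndecan-4, had 58.2 in line 6 and 40.1 to 44.7 in the others, against 67.8 in wt. Phf6, Rap2c and Cdk16, 3 of the 5, lie on chromosome X in GRCm38, and 2.89% of the 5916 compared genes with a chromosome do. Sdc4 lies on chromosome 2 and 9130221H12Rik, annotated as antisense, on chromosome 7. The value of the last is uncertain, since the strand setting of the counting is not given. Since the 5 were chosen for this pattern, their differences between lines are a description and no test of them is given.

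**Figure D5:**
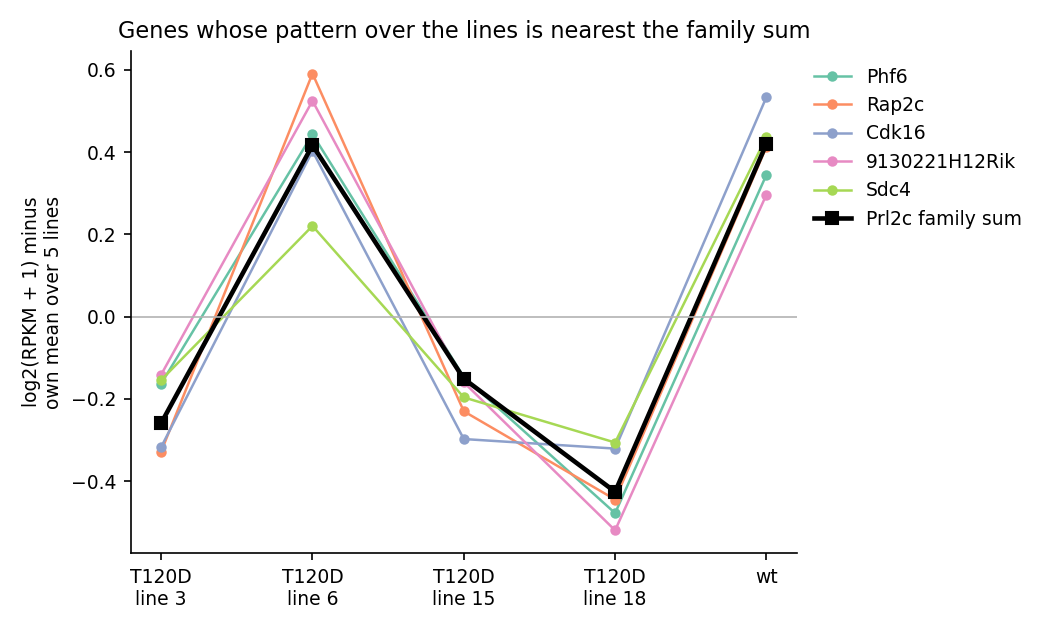
log2(RPKM + 1) minus each feature's own mean over the 5 lines (vertical axis) in the 4 T120D lines and the wt line, for the Prl2c family sum (black squares) and the 5 genes nearest to it. Line 6 and wt lie above the mean and lines 3, 15 and 18 below it for every feature drawn.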

How the data were processed

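RNA of 4 T120D lines and 1 wt line was measured, 1 library each, made with a stranded mRNA kit and sequenced on a MiSeq, per the labels. The authors deposited RPKM values per gene symbol. The software Partek and the build mm9 are named, per the submitters' processing notes. The aligner, the gene annotation and the strand setting were not given in the sources used.

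Depth was estimated from values that fell on whole reads in genes with 1 GENCODE transcript (GRCm38). Between 46.7% and 53.1% of those under 20 reads were whole to within 0.05 reads (10% by chance), so no count model was used. Values were tested as log2(RPKM + 1) for genes that averaged 1 RPKM or more, with limma 3.58.1 in R 4.3.3 (trend, two-sided, Benjamini-Hochberg over all tested genes, calls under 0.05). The spread came from the T120D lines and was taken to hold for wt. For 1 line of 5 the smallest exact one-sided p is 0.2. For line 6, the spread came from lines 3, 15 and 18. p-values measure the spread between these libraries, which may be technical. The tests were checked on simulated data with 200 genes changed 4-fold. For T120D against wt, 197 were recovered in the right direction, with 9 false calls. For line 6, 200 were recovered, with 28 false calls. Smaller changes were not simulated. The simulated lines, wt included, all had the same spread and were independent of each other. The check therefore cannot show whether this holds for the real lines. Alternatives changed the pseudocount, filter, trend, scaling and way of summing the family, or left out a line. Coding sequences were aligned with MAFFT 7.526. Other genes named were the called genes of each list with the largest differences, at most 5, every gene of the receptor list, the 5 genes nearest in pattern and 3 neighbours on each side. The members and lists were chosen with earlier results of these data known.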

Additional observations from a re-analysis of the deposited data

Results flagged for a closer look

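In 1 of 40 genes examined, 1 of the 4 T120D lines lay far from the other 3, with a gap to the nearest line, relative to the group's range, above Dixon's 95% critical value. Chance gives about 1 in 20. The gene was Dcn, the decorin gene, with 24.5 RPKM in line 6 and 11.7 to 12.7 RPKM in the other T120D lines. The Prl2c genes, their sums and the genes picked for a like pattern were left out, since they were chosen by these values.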

How the results depend on the processing

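The T120D to wt ratio of the family sum was 0.712. It stayed between 0.695 and 0.725 with members summed as estimated reads, on the log2 scale or under median scaling. The same range held with Prl2c2 left out or taken alone. It also held for Prl2c3 plus Prl2c4 alone, which is nearly the same as leaving out Prl2c2. With a T120D line left out the ratio was between 0.617 and 0.764, lowest without line 6. The ratio of line 6 to the other T120D lines was 1.62, and 1.81 without Prl2c2, which equals Prl2c3 plus Prl2c4 as 1 gene (added after the data were seen), and 1.54 to 1.69 when a line was left out.

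With no filter, 415 genes were higher and 596 lower in T120D, against 769 and 548 with it, so that the lower calls became the more numerous, and by limma without a trend 455 were higher and 361 lower, against 769 and 548. Leaving out a T120D line gave 560 to 796 higher and 395 to 586 lower genes. For line 6, 0 genes became 261 higher and 42 lower without the filter. Of these 303, 298 had a mean under 1 RPKM and 236 the same value in lines 3, 15 and 18. With a pseudocount of 0.1 RPKM 1 gene was lower. Leaving out line 3, 15 or 18 gave 0 to 4 higher and 0 to 1 lower genes.

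Of 29 called genes named, 18 kept their call and direction in every alternative. The sign of uncalled differences near 0 turned for Nagpa (0.0049 under median scaling, 0.0551 under quantile normalization, and -0.152 to 0.118 when a line was left out), Sox4 (-0.0195 under quantile normalization, and -0.0164 to 0.0831 when a line was left out), Cdkal1 (-0.0367 to 0.241 when a line was left out) and Mrs2 (-0.0277 to 0.103). The cause was not tested. No paired analysis was possible because wt is 1 line and shares no number with the T120D lines. Depth limits Prl2c1 and Prl2c5, which rest on about 1 read.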
